A study of Mus musculus with 14 samples.

Results

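The genes described here are 52 genes of macroautophagy, taken by name from a list of initiation, conjugation, cargo receptor and fusion genes together with the MiT/TFE transcription factor genes Tfeb, Tfe3 and Mitf. Each of the 52 matched 1 gene ID among the 41739 in the table, and all 52 were among the 18724 genes kept for testing (a level of 1 or more TPM, transcripts per 1000000, in 3 or more libraries). The study sequenced total RNA from microglia, the macrophages resident in brain tissue, isolated by magnetic sorting from mice in which the small GTPase gene Rheb could be deleted. KO libraries carried the genotype Rheb F/F; Tmem119-cre ER, floxed Rheb alleles with an inducible Cre recombinase under the microglial gene Tmem119, and WT libraries carried Rheb F/F, the floxed alleles without Cre. Per the design text, all mice received tamoxifen and were 8 weeks old, and PBS or LPS (bacterial endotoxin, 1.0 mg/kg) was injected into the abdomen once a day for 4 days. The groups were KO LPS (4 libraries), WT LPS (4), KO PBS (3) and WT PBS (3). Since no WT library carried Cre, an effect of Cre or of the Tmem119 allele cannot be told apart from that of Rheb. Whether the libraries of a group stem from separate mice is not stated, so p-values measure the spread between libraries, which may be technical.

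Macroautophagy encloses cytoplasm in a double membrane and delivers it to lysosomes. The ULK1 kinase complex starts the process and the class III PI3-kinase complexes mark the growing membrane. Enzymes of 2 conjugation systems attach LC3 and GABARAP proteins to the membrane lipid, cargo receptors and mitophagy factors bind what is to be degraded, and a tethering and SNARE machinery fuses the autophagosome with the lysosome. The kinase complex mTORC1, which Rheb activates, inhibits ULK1 and keeps TFEB and TFE3 in the cytoplasm, and these factors in the nucleus bind the E-box CACGTG of autophagy and lysosome genes. In microglia, autophagy degrades damaged mitochondria and takes part in the handling of engulfed material. All values here are mRNA levels, and an mRNA level is not a measure of autophagic flux or of the location of TFEB.

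CACGTG, which reads alike on both strands, was looked up in RefSeq promoter windows of build GRCm38.p6 that run from 250 bases before to 50 bases after a gene start. Windows were given for 44 of the 52 genes, and 6 of these (13.6%) held the motif, against 8.09% of all genes with a window and 10.9% of the tested genes with one. A gene with several windows was counted if any of them held it. Counted by window, the share was 10.5% for the 44 genes and 7.15% for all windows. The 6 were Atg14, Atg3, Atg5, Atg7, Bnip3 and Rubcn, and the longer form TCACGTG, on either strand and overlapping the first motif, stood in 4 of them, Atg14, Atg3, Atg7 and Rubcn (9.09%, against 4.29% of all genes and 6.40% of tested genes). A match describes these letters in this window and is not a binding site. The 4 shown are those of Bnip3, called between genotypes, and of Atg14, Atg3 and Rubcn, called between LPS and PBS in both genotypes and under both scalings used. Another window of Rubcn (chr16:32877680-32877979, minus strand), at a different gene start, does not hold CACGTG and is not shown. Capitals mark CACGTG, which starts 1 base before the gene start in Atg14 (chr14:47568385-47568684, minus strand), at 94 and 71 bases before it in Atg3 (chr16:45158579-45158878, plus strand), at 88 bases before it in Rubcn (chr16:32868317-32868616, minus strand) and at 108 bases before it in Bnip3 (chr7:138909457-138909756, minus strand).
Atg14: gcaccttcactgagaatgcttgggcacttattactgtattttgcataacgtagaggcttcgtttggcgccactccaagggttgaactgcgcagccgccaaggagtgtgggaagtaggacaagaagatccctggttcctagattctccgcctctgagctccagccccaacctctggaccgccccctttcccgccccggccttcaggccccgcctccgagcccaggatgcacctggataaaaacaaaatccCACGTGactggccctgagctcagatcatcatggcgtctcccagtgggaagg
Atg3: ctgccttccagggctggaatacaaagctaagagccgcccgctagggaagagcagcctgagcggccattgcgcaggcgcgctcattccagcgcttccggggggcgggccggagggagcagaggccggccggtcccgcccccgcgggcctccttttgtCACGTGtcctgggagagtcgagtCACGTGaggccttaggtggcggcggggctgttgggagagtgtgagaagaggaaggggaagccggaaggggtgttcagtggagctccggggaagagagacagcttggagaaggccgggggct
Rubcn: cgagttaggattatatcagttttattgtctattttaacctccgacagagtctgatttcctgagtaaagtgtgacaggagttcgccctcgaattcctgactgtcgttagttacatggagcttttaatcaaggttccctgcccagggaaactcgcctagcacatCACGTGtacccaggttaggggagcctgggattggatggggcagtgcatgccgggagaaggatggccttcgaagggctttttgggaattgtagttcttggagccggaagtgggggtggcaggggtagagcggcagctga
Bnip3: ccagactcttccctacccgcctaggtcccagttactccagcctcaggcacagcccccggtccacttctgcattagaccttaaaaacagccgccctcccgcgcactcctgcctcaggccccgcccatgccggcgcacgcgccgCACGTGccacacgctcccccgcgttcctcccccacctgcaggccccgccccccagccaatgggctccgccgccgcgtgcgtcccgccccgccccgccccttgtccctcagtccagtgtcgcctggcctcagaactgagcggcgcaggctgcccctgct

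Depth recovered from the table, in M (1000000 reads), was 7.99 M in KO_LPS_4, the shallowest library, 16.6 to 21.7 M in the other KO LPS libraries, 19.3 to 32.3 M in WT LPS and 15.7 to 20.7 M in PBS libraries. The 52 genes had from 50 reads (Atg10 in KO_LPS_4) to 8115 reads (Rab7). Rheb, the targeted gene, stood at 25.5, 22.9, 23.1 and 19.5 TPM in KO LPS and 31.8, 32.5, 33.6 and 25.1 TPM in WT LPS, and at 16.6, 19.0 and 19.1 TPM in KO PBS and 29.7, 32.2 and 34.5 TPM in WT PBS, so part of the transcript remained in every KO library. The X-inactivation transcript Xist was at 255 to 574 TPM in LPS libraries and at most 0.147 TPM in PBS libraries, and the Y-linked Ddx3y was at most 0.270 TPM in LPS libraries and 111 to 146 TPM in PBS libraries. The design text names female mice, so these transcripts go against it for the PBS libraries, and sex and treatment cannot be told apart in any LPS to PBS value. KO_LPS_3 and WT_PBS_914 carried pituitary hormone transcripts (Gh at 19672 and 78126 TPM, at most 1.90 TPM elsewhere). WT_PBS_914, 1 of the 3 WT PBS libraries, also had the highest neutrophil and monocyte marker sums of the PBS libraries (21741 and 895 TPM, against at most 7311 and 332 TPM in KO PBS). The short RNA feature Gm23935 took 4.04% to 15.4% of all TPM in LPS libraries and 0.0566% to 0.248% in PBS libraries. The 10 microglial markers examined were each at 106.81 TPM or more in every library. In such bulk samples, fewer cells of a type and less RNA per cell cannot be told apart.

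Between KO and WT microglia these transcripts differed little, and most differences that were called were lower levels in KO. Under PBS, Gabarapl2, a member of the GABARAP family, fell in KO (log2 fold change ± SE of -0.38 ± 0.08, adjusted p = 0.0474, limma). It was the 1 gene of the 52 called, beside 1.02% of all genes tested (0.796% higher and 0.224% lower), and 9 of the 52 had an unadjusted p under 0.05, beside 15.7% of all genes. Under LPS 0 genes of the 52 were called by limma, beside 0.497% of all genes (0.256% higher and 0.24% lower). Here 6 of the 52 had an unadjusted p under 0.05, beside 11.7% of all genes, and limma-voom on recovered reads called 1, Ulk2. Averaged over both treatments, Atg4a, an LC3-processing protease, Bnip3, a mitophagy receptor, and Gabarapl2 fell, and Atg16l1, part of the LC3-conjugating complex, rose. Thus 4 of 52 were called, beside 3.94% of all genes, 1 of them higher (3.03% of all genes) and 3 lower (0.913%), and 9 had an unadjusted p under 0.05 (16.9% of all genes). With median-of-ratios scaling, which divides each library by the median ratio of its genes to their geometric mean over libraries, the average called 0 higher (1.93% of all genes) and 6 lower (1.56%), 3.49% of all genes being called, in place of 1 higher and 3 lower. The same scaling called 1 gene of the 52 under PBS, Gabarapl2 (0.7% of all genes), and 1 under LPS, Ulk2 (0.908%). Throughout, a fold change is that of TPM plus 1 on the log2 scale with its SE, a called gene has an adjusted p under 0.05 over all 18724 genes, and rose or fell is written only of called genes.

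The adjusted p of these calls lay near the threshold, and calls were lost when libraries were left out, while the fold changes stayed of similar size. The Gabarapl2 call under PBS was kept in 3 of 14 fits that left out 1 library, those without KO_LPS_2, KO_LPS_4 or WT_LPS_4, and elsewhere its adjusted p was 0.0504 to 0.179 with fold changes of -0.43 to -0.30. On average over treatments, Gabarapl2 kept its call in 1 of 14 such fits (without WT_LPS_3) and Atg16l1 in 1 (without KO_LPS_2). Atg4a kept it in 11 and lost it without KO_PBS_915, WT_PBS_904 or WT_PBS_913 (adjusted p up to 0.0595, fold changes of -0.55 to -0.41 over the 14 fits). Bnip3 kept it in 9 and lost it without KO_PBS_911, KO_PBS_912, WT_PBS_904, WT_PBS_913 or WT_PBS_914 (up to 0.0766, fold changes of -0.64 to -0.52). All 4 kept their sign in all 14 fits.

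Over the 52 genes, the median fold change was -0.07 under PBS, where that of all genes was -0.00. Of the 52, 21 were positive and 31 negative, where 49.1% of all genes were positive. Under LPS the median was -0.03, beside 0.07 for all genes, with 20 positive and 32 negative, where 62.8% of all genes were positive. The same shares apply to the sign counts by role given below. Groups did not overlap for 18 of the 52 under PBS (34.6%, beside 25.8% of all genes), 15 of them with KO below WT (10.9% of all genes) and 3 above (14.9%). Under LPS they did not overlap for 4 (7.69%, beside 6.18% of all genes), namely Ulk2, Atg4a and Rubcn below WT (1.96% of all genes) and Atg16l1 above (4.22%). Atg4a and Atg16l1 were the 2 genes without overlap in both treatments, a share that was not computed over all genes. The sign was the same in both treatments for 31 of 52 genes (59.6%, beside 53.9% of all genes), 21 lower and 10 higher in KO. Of interactions between genotype and treatment, limma called 0 of the 52 and 0% of all genes, and limma-voom called 0 of the 52. An unadjusted p under 0.05 was found for 3 of the 52 (Gabarapl2, Vmp1 and Map1lc3b), beside 9.51% of all genes. Markers of endothelial and mural cells summed to 385 to 751 TPM in KO PBS and 637 to 1055 TPM in WT PBS, and neuron markers to 4.75 to 6.95 TPM in KO PBS and 7.99 to 50.7 TPM in WT PBS. Microglial markers summed to 18817 to 25361 TPM in KO LPS and 25786 to 29556 TPM in WT LPS, so that these groups did not overlap. These sums include Tmem119, the gene under which Cre was placed in KO mice. It was at 764 to 1016 TPM in KO LPS and 1608 to 1872 TPM in WT LPS, and the lack of overlap of the sums depends on it. All 5 endothelial and mural, 5 neuron and 10 microglial markers were detected in every library, and their part in the genotype results was not tested.

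**Figure D1:**
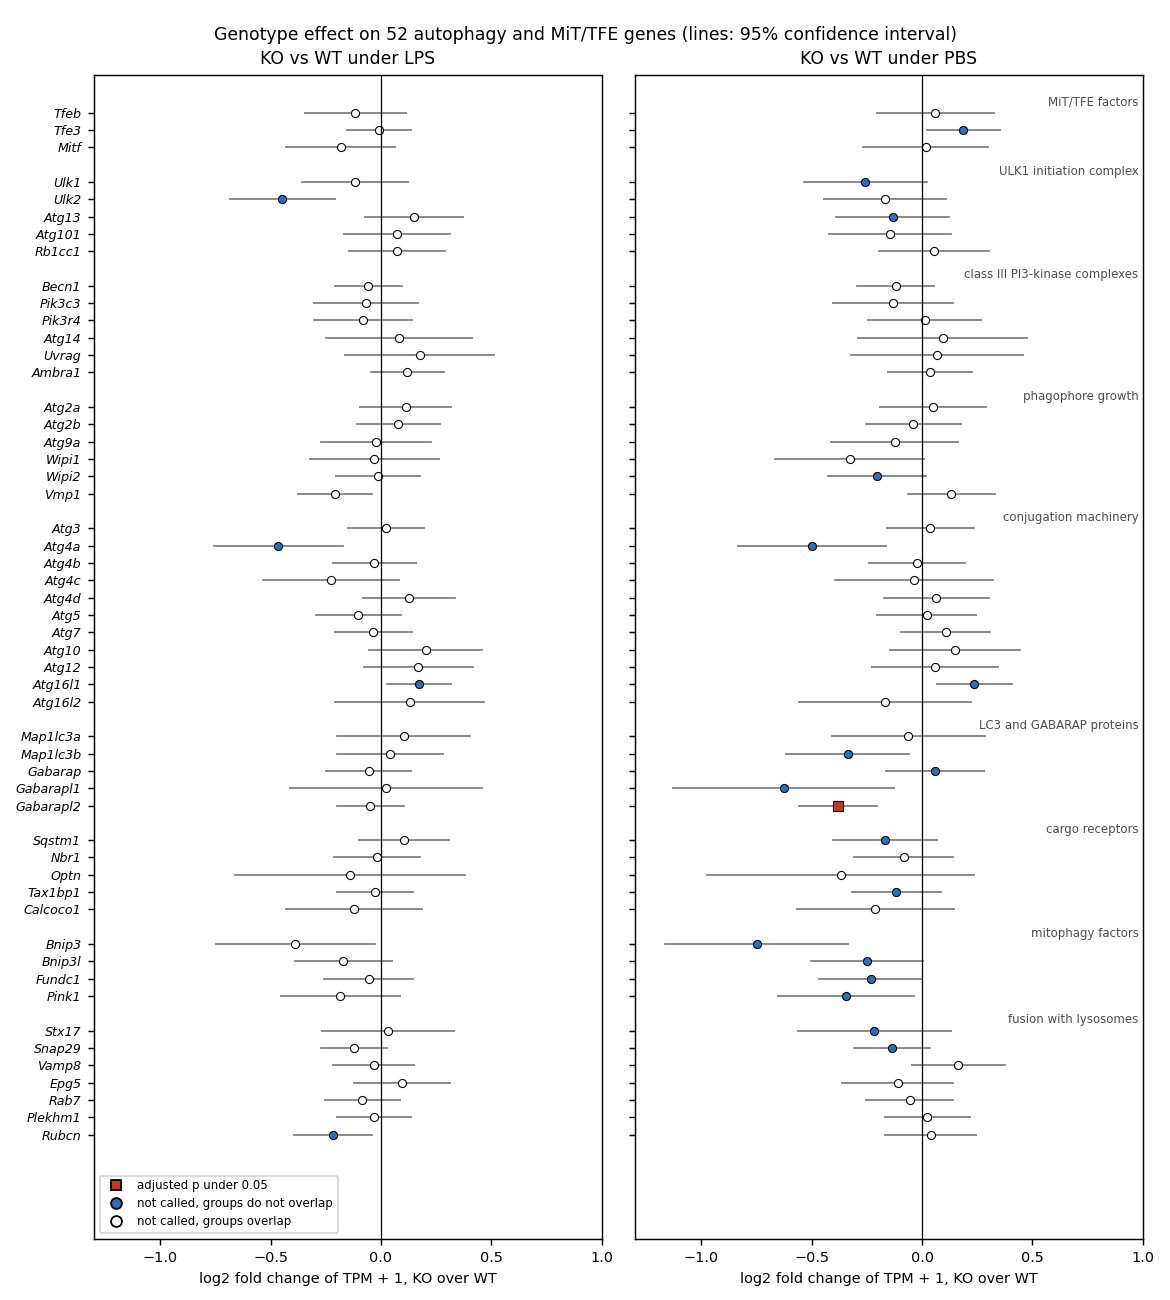
Log2 fold change of TPM plus 1, KO over WT, for each of the 52 genes grouped by role, under LPS (left) and PBS (right), with lines for the 95% confidence interval. The filled square marks Gabarapl2, the called gene, blue circles mark genes whose groups do not overlap (4 under LPS, 17 others under PBS), and most intervals cross 0.

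Among the MiT/TFE factors, the genotype went with no called change. Tfeb, a factor that mTORC1 holds in the cytoplasm, stood at 18.4, 13.7, 17.0 and 17.2 TPM in KO LPS and 21.3, 17.2, 16.9 and 16.7 TPM in WT LPS. In PBS libraries Tfeb was at 25.2, 22.6 and 23.7 TPM in KO and 22.8, 24.3 and 21.5 TPM in WT. The KO and WT ranges overlapped within each treatment, and the fold changes were -0.12 ± 0.11 under LPS and 0.06 ± 0.12 under PBS (95% intervals -0.35 to 0.11 and -0.21 to 0.32). The adjusted p was 0.726 under LPS and 0.846 under PBS. Tfe3, its close relative, stood at 52.2, 48.9, 51.9 and 57.8 TPM in KO LPS and 55.0, 52.2, 55.4 and 49.5 TPM in WT LPS. In PBS libraries Tfe3 was at 62.2, 61.3 and 61.4 TPM in KO and 57.9, 52.5 and 51.8 TPM in WT. All 3 KO PBS libraries lay above all WT PBS libraries (0.19 ± 0.08, adjusted p = 0.269), while the LPS groups overlapped (-0.01 ± 0.07, adjusted p = 0.971). Mitf, the third member, is best known from melanocytes and stood at 23.4, 19.4, 17.4 and 23.2 TPM in KO LPS and 25.4, 25.3, 21.6 and 22.6 TPM in WT LPS. In PBS libraries Mitf was at 33.5, 33.7 and 26.1 TPM in KO and 32.0, 31.3 and 28.5 TPM in WT. Both of its genotype comparisons overlapped (-0.18 under LPS and 0.02 under PBS, adjusted p = 0.58 and 0.972).

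In the ULK1 initiation complex, 4 of 5 genes had a negative fold change under PBS and 2 of 5 under LPS, none called. Ulk1, the kinase that mTORC1 phosphorylates, stood at 26.3, 19.9, 24.2 and 19.9 TPM in KO LPS and 26.2, 21.3, 23.8 and 26.6 TPM in WT LPS. In PBS libraries Ulk1 was at 28.3, 30.2 and 29.0 TPM in KO and 40.6, 31.8 and 33.4 TPM in WT. KO lay below WT without overlap under PBS (-0.26 ± 0.13, adjusted p = 0.355) and the LPS groups overlapped (-0.12 ± 0.11, adjusted p = 0.738). Ulk2, the second kinase of this type, had the smallest adjusted p of the 52 under LPS and stood at 82.8, 81.5, 84.7 and 102 TPM in KO LPS and 129, 132, 106 and 113 TPM in WT LPS. In PBS libraries Ulk2 was at 143, 133 and 139 TPM in KO and 175, 168 and 127 TPM in WT. Its KO LPS libraries all lay below its WT LPS libraries, at 73.2% of the WT mean (-0.45 ± 0.11, adjusted p = 0.0939), and the call was made with median-of-ratios scaling (-0.53, adjusted p = 0.0228). Under PBS Ulk2 overlapped (-0.17, adjusted p = 0.552), and the difference between treatments did not pass (interaction -0.28 ± 0.17, adjusted p = 0.603). Atg13, the adaptor that mTORC1 also phosphorylates, stood at 30.4, 25.0, 32.9 and 27.0 TPM in KO LPS and 29.7, 28.0, 24.1 and 21.9 TPM in WT LPS. In PBS libraries Atg13 was at 38.2, 38.3 and 39.4 TPM in KO and 42.0, 42.4 and 43.2 TPM in WT. Its KO PBS libraries lay below the WT PBS libraries by a small margin (-0.13 ± 0.12, adjusted p = 0.611), and under LPS its fold change was 0.15. Atg101 and the scaffold Rb1cc1 (FIP200) had fold changes of 0.07 and 0.07 under LPS and -0.15 and 0.05 under PBS.

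The class III PI3-kinase genes moved little with genotype, from -0.08 to 0.17 under LPS and -0.13 to 0.09 under PBS over 6 genes, all with overlapping groups. Becn1 (Beclin 1), the scaffold of both complexes, stood at 39.9, 36.4, 36.9 and 36.5 TPM in KO LPS and 38.1, 38.3, 40.8 and 38.8 TPM in WT LPS. In PBS libraries Becn1 was at 30.1, 30.7 and 34.7 TPM in KO and 35.6, 36.5 and 32.0 TPM in WT. Its fold changes were -0.06 ± 0.07 under LPS and -0.12 ± 0.08 under PBS (adjusted p = 0.798 and 0.495). Exons of Cntd1 on the other strand cover 43.9% of the exon length of Becn1, and Cntd1 was at most 1.10 TPM. Whether counting used strand is not given in the sources used here. The genes for membrane growth gave no call either. In this set Vmp1, an endoplasmic reticulum protein needed for phagophore formation, had fold changes of -0.21 ± 0.08 under LPS and 0.13 ± 0.09 under PBS (adjusted p = 0.307 and 0.499), and the interaction was -0.34 ± 0.12 (adjusted p = 0.465). Wipi2, which reads the lipid mark and recruits ATG16L1, lay lower in all KO PBS than in all WT PBS libraries (-0.20, adjusted p = 0.362), with -0.01 under LPS.

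In the conjugation machinery, Atg4a and Atg16l1 differed between genotypes without overlap in both treatments, in opposite directions. The share of all genes that did so was not computed. Atg4a, a protease that cleaves and recycles GABARAP-type proteins, stood at 17.0, 17.8, 19.4 and 14.5 TPM in KO LPS and 24.3, 26.6, 21.5 and 23.7 TPM in WT LPS. In PBS libraries Atg4a was at 20.3, 18.3 and 13.8 TPM in KO and 27.4, 27.0 and 20.5 TPM in WT. KO levels were 71.5% of WT under LPS and 69.9% under PBS. Under PBS the groups were parted by a small margin, 20.3 TPM in KO_PBS_911 against 20.5 TPM in WT_PBS_914. The fold change was -0.46 ± 0.13 under LPS and -0.50 ± 0.16 under PBS (adjusted p = 0.157 and 0.149, neither called), and -0.48 ± 0.10 on average (adjusted p = 0.0206, called). The other ATG4 proteases had average fold changes of -0.03 (Atg4b), -0.13 (Atg4c) and 0.10 (Atg4d), with adjusted p = 0.903, 0.611 and 0.573. A pseudogene named for Atg4a is annotated (Atg4a-ps), so reads may be shared with it. Atg16l1, which directs the conjugating enzyme to the phagophore, stood at 24.0, 21.6, 22.0 and 22.4 TPM in KO LPS and 18.9, 19.9, 20.5 and 20.0 TPM in WT LPS. In PBS libraries Atg16l1 was at 25.8, 24.3 and 26.0 TPM in KO and 21.5, 22.1 and 20.6 TPM in WT. KO levels were 113% of WT under LPS and 119% under PBS (0.17 and 0.24, adjusted p = 0.338 and 0.172), and the average was 0.20 ± 0.05 (adjusted p = 0.0451, called). With median-of-ratios scaling the average was 0.15 and not called (adjusted p = 0.191). The partners of ATG16L1 and the E1 and E2 enzymes, Atg3, Atg5, Atg7, Atg10 and Atg12, ranged from -0.04 (Atg5) to 0.18 (Atg10) on average, none called.

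**Figure D2:**
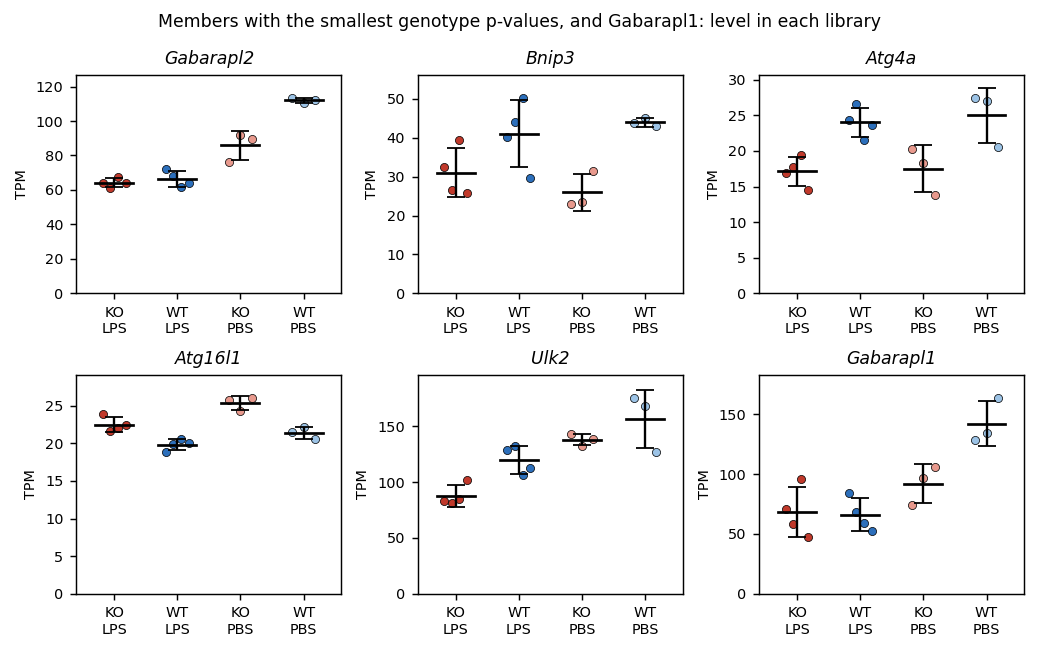
TPM (linear axis from 0) of 6 genes in each of the 14 libraries by group, KO LPS, WT LPS, KO PBS and WT PBS from left to right, with bars for the mean and SD (n = 4, 4, 3 and 3). Atg4a and Atg16l1 part KO from WT in both treatments, Ulk2 under LPS, and Gabarapl2, Bnip3 and Gabarapl1 under PBS.

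The LC3 and GABARAP genes, whose products are attached to the autophagosome membrane, were lower in KO under PBS for 4 of 5, and 1 was called. Gabarapl2 (GATE-16) stood at 63.8, 61.1, 67.6 and 64.0 TPM in KO LPS and 71.9, 68.0, 61.7 and 64.0 TPM in WT LPS. In PBS libraries Gabarapl2 was at 76.3, 92.0 and 89.4 TPM in KO and 113, 110.3 and 112 TPM in WT. KO PBS libraries reached 76.7% of the WT PBS mean without overlap, while the LPS groups overlapped (-0.05 ± 0.07, adjusted p = 0.843), and the interaction was 0.33 ± 0.11 (adjusted p = 0.443). Gabarapl1, a second GABARAP-like protein, stood at 71.0, 58.4, 96.1 and 47.5 TPM in KO LPS and 84.2, 68.0, 58.8 and 52.8 TPM in WT LPS. In PBS libraries Gabarapl1 was at 73.8, 96.8 and 105 TPM in KO and 129, 134 and 163 TPM in WT. Its KO PBS libraries lay below all WT PBS libraries (-0.63 ± 0.23, adjusted p = 0.219), the LPS groups overlapped (0.02 ± 0.20, adjusted p = 0.98), and the interaction did not pass (0.65 ± 0.31, adjusted p = 0.531). Map1lc3b, the LC3 form most used as an autophagosome marker, stood at 68.5, 53.7, 53.9 and 46.7 TPM in KO LPS and 60.5, 51.1, 55.4 and 48.4 TPM in WT LPS. In PBS libraries Map1lc3b was at 48.6, 58.8 and 55.9 TPM in KO and 72.8, 69.7 and 64.1 TPM in WT. It too lay lower in KO PBS without overlap (-0.34 ± 0.13, adjusted p = 0.229) and overlapped under LPS (0.04, adjusted p = 0.929). Map1lc3a stood at 68.3, 59.7, 62.2 and 44.7 TPM in KO LPS and 67.2, 50.1, 45.3 and 55.4 TPM in WT LPS. In PBS libraries Map1lc3a was at 65.9, 72.2 and 67.7 TPM in KO and 77.9, 76.8 and 61.4 TPM in WT. KO and WT overlapped in both treatments (0.10 under LPS and -0.06 under PBS, adjusted p = 0.822 and 0.881). Gabarap, the highest of the 5 genes in TPM, stood at 371, 406, 373 and 360.4 TPM in KO LPS and 411, 397, 452 and 321 TPM in WT LPS. In PBS libraries Gabarap was at 341, 347 and 342 TPM in KO and 334, 339 and 317 TPM in WT. KO PBS lay just above WT PBS without overlap, and the fold changes were -0.06 under LPS and 0.06 under PBS (adjusted p = 0.858 and 0.817).

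Summed over these 5 genes, the level was 624 ± 41.2 TPM in KO LPS and 636 ± 67.6 TPM in WT LPS (SD, n = 4 each), and 644 ± 33.6 TPM in KO PBS and 725 ± 6.18 TPM in WT PBS (n = 3 each). The KO PBS libraries lay between 606 and 667 TPM and the WT PBS libraries between 718 and 729 TPM. Gabarap made up 60.6% ± 3.66 of the sum in KO LPS, 62.0% ± 3.77 in WT LPS, 53.4% ± 2.54 in KO PBS and 45.5% ± 1.22 in WT PBS. Its share was higher in every KO PBS library (51.8% to 56.3%) than in any WT PBS library (44.1% to 46.4%), and higher in every LPS library than in any PBS library of the same or the other genotype.

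**Figure D3:**
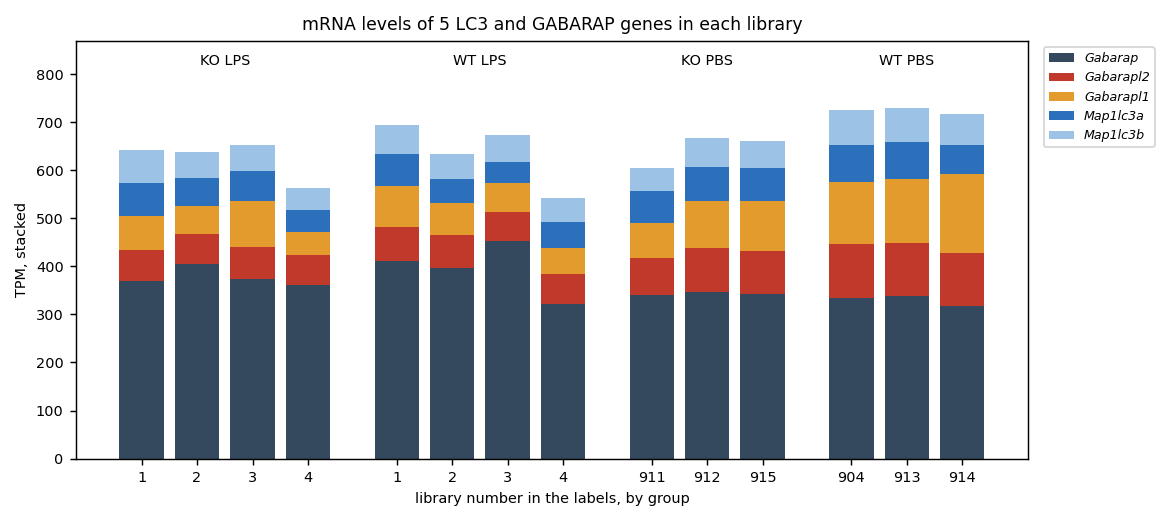
TPM of Gabarap, Gabarapl2, Gabarapl1, Map1lc3a and Map1lc3b stacked for each of the 14 libraries, named by their number in the labels and grouped as KO LPS, WT LPS, KO PBS and WT PBS. Gabarap is the largest share everywhere, from 44.1% to 67.2% of the sum, and the 3 WT PBS libraries have the highest Gabarapl1 and Gabarapl2.

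All 5 cargo receptors had a negative fold change under PBS, from -0.37 (Optn) to -0.08 (Nbr1), and none was called. The value of Optn rests on 1 library, WT_PBS_914, at 16.0 TPM. The other WT PBS libraries were at 7.21 and 6.96 TPM, within the range of KO PBS (6.99, 8.86 and 5.55 TPM). Sqstm1 (p62), which links ubiquitin to LC3 and is itself a transcriptional target in stress responses, stood at 284, 203, 235 and 209.9 TPM in KO LPS and 235, 208, 216 and 202 TPM in WT LPS. In PBS libraries Sqstm1 was at 214, 236 and 231 TPM in KO and 257, 255 and 254 TPM in WT. KO PBS lay below WT PBS without overlap (-0.17 ± 0.11, adjusted p = 0.473), and KO LPS overlapped WT LPS (0.11 ± 0.09, adjusted p = 0.721). Exons of Mrnip on the other strand cover 17.3% of the exon length of Sqstm1, at up to 5.47 TPM.

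The 4 genes grouped here as mitophagy factors, which mark or bind mitochondria for degradation, were lower in all KO PBS than in all WT PBS libraries. Of all genes tested, 10.9% were lower in this way, and the genes were grouped by role after values were seen. Bnip3, a receptor on the outer mitochondrial membrane and a known hypoxia-induced gene, stood at 32.5, 26.6, 39.5 and 25.7 TPM in KO LPS and 40.2, 44.2, 50.2 and 29.7 TPM in WT LPS. In PBS libraries Bnip3 was at 23.1, 23.4 and 31.5 TPM in KO and 43.8, 45.2 and 42.9 TPM in WT. KO reached 59.1% of the WT mean under PBS (-0.75 ± 0.19, adjusted p = 0.0815) and 75.6% under LPS, where 1 WT library, at 29.7 TPM, lay among the KO libraries (-0.39 ± 0.17, adjusted p = 0.383). Neither was called, while the average of both treatments was (-0.57 ± 0.13, adjusted p = 0.0259). The antisense gene Gm45507, which covers 22.3% of the exon length of Bnip3, was listed at 0. Pink1, the kinase that marks depolarised mitochondria, averaged 107 ± 2.08 TPM in KO PBS and 137 ± 15.1 TPM in WT PBS (SD, n = 3 each), a fold change of -0.34 ± 0.14 (adjusted p = 0.274). Bnip3l (NIX), the relative of Bnip3, averaged 136 ± 6.01 TPM in KO PBS and 162 ± 11.0 TPM in WT PBS (-0.25 ± 0.12, adjusted p = 0.328). Fundc1, another outer membrane receptor, averaged 71.5 ± 5.32 TPM in KO PBS and 84.1 ± 3.74 TPM in WT PBS (-0.23 ± 0.11, adjusted p = 0.318). Under LPS these 3 had fold changes of -0.18, -0.17 and -0.06, with overlapping groups. On average they were -0.26, -0.21 and -0.14 (adjusted p = 0.162, 0.177 and 0.329), and with median-of-ratios scaling the averages of Pink1 and Bnip3l were called (-0.32 and -0.26, adjusted p = 0.0301 and 0.0182).

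Among the 7 fusion genes no genotype difference was called. Rubcn (Rubicon), an inhibitor of the PI3-kinase complex and of fusion, lay lower in all KO LPS than in all WT LPS libraries (-0.22 ± 0.08, adjusted p = 0.313) and overlapped under PBS (0.04). Stx17 and Snap29, SNAREs of the autophagosome, lay lower in KO PBS without overlap (-0.22 and -0.14, adjusted p = 0.54 and 0.428). Vamp8, the lysosomal SNARE, and Rab7, the GTPase of late endosomes, had fold changes of -0.03 and -0.08 under LPS and 0.16 and -0.06 under PBS.

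LPS libraries differed from PBS libraries in many more of the 52 genes, and treatment and sex cannot be told apart in these differences. In KO, 4 rose and 23 fell, beside 7.82% of all genes called higher and 26.9% called lower. In WT, 3 rose and 28 fell, beside 7.95% higher and 34.1% lower. In both directions together 27 of 52 were called in KO (34.7% of all genes) and 31 in WT (42% of all genes), and 30 and 39 had an unadjusted p under 0.05 (44.6% and 50.5% of all genes). LPS and PBS libraries did not overlap for 33 of the 52 in KO, 5 higher and 28 lower, beside 40.8% of all genes (9.52% higher and 31.3% lower). They did not overlap for 35 in WT, 4 higher and 31 lower, beside 45.9% of all genes (8.45% higher and 37.4% lower). The median fold change of the 52 was -0.23 in KO and -0.32 in WT, where that of all genes was -0.22 and -0.28. Median-of-ratios scaling removes most of this shift of all genes, and with it the split was 11 higher and 7 lower in KO and 9 higher and 9 lower in WT. On that scale 22.8% of all genes were called in KO (12.6% higher and 10.2% lower) and 29.3% in WT (16% higher and 13.3% lower). The direction of a gene near the median of all genes depends on the scale, and those called on both scales are given first. The LPS libraries also had lower microglial marker sums (18817 to 25361 TPM in KO LPS, 25786 to 29556 TPM in WT LPS, 36499 to 39680 TPM in KO PBS and 31502 to 41162 TPM in WT PBS), and higher sums of the 4 monocyte markers (960 to 1539 TPM in KO LPS, 909 to 1843 TPM in WT LPS, 217 to 332 TPM in KO PBS and 199 to 895 TPM in WT PBS). The 5 neutrophil markers summed to 10347 to 22640 TPM in KO LPS, 8428 to 19610 TPM in WT LPS, 4611 to 7311 TPM in KO PBS and 5140 to 21741 TPM in WT PBS, so that LPS and PBS did not overlap in KO and overlapped in WT. The 4 erythroid markers summed to 2.66 to 26.4 TPM in KO LPS, 1.74 to 569 TPM in WT LPS, 99.6 to 328 TPM in KO PBS and 109 to 224 TPM in WT PBS, again without overlap in KO. All microglial, monocyte and neutrophil markers were detected in every library, 2 of the 4 erythroid markers were at 0 in at least 1, and the part of these cells in the LPS to PBS results was not tested.

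Called lower in both genotypes and on both scales were Atg14, Calcoco1, Nbr1, Pik3c3 and Rubcn, and called higher were Vmp1 and Atg3. The share of all genes called in this way was not computed, so this list cannot be set against it. Vmp1 had the largest rise of the 52 in both genotypes, at 85.2, 86.9, 76.5 and 83.9 TPM in KO LPS and 86.8, 106, 103 and 90.1 TPM in WT LPS. In PBS libraries Vmp1 was at 56.9, 51.4 and 52.4 TPM in KO and 51.6, 45.3 and 49.5 TPM in WT. All LPS libraries lay above all PBS libraries, at 155% of the PBS mean in KO (0.62 ± 0.08, adjusted p = 0.000168) and 198% in WT (0.97 ± 0.08, adjusted p = 9.4e-06). The miRNA gene Mir21a overlaps 2.38% of the exon length of Vmp1 on the same strand and was listed at 0. Atg3, the E2-like enzyme of LC3 lipidation, stood at 81.4, 80.5, 74.3 and 86.2 TPM in KO LPS and 79.8, 85.9, 83.7 and 68.6 TPM in WT LPS. In PBS libraries Atg3 was at 72.2, 64.0 and 64.6 TPM in KO and 66.2, 67.9 and 61.3 TPM in WT. LPS and PBS libraries did not overlap within either genotype (0.26 ± 0.09 in KO and 0.28 ± 0.09 in WT, adjusted p = 0.0301 and 0.0198). Its KO call was lost in 5 of 14 fits that left out 1 library and its WT call in 2.

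Rubcn fell in LPS libraries of both genotypes, at 20.1, 18.1, 22.0 and 19.2 TPM in KO LPS and 24.4, 22.2, 22.6 and 23.7 TPM in WT LPS. In PBS libraries Rubcn was at 35.0, 38.4 and 36.2 TPM in KO and 39.3, 35.5 and 32.2 TPM in WT. Every LPS library lay below every PBS library, at 54.3% of the PBS mean in KO (-0.85 ± 0.09, adjusted p = 2.91e-05) and 65.0% in WT (-0.60 ± 0.09, adjusted p = 0.000375). The difference between the genotypes in this fall was short of the test (interaction -0.26 ± 0.13, adjusted p = 0.544). Calcoco1, a receptor for Golgi and endoplasmic reticulum cargo, stood at 23.9, 17.6, 28.4 and 21.8 TPM in KO LPS and 30.1, 24.7, 20.2 and 24.7 TPM in WT LPS. In PBS libraries Calcoco1 was at 39.7, 46.4 and 38.8 TPM in KO and 52.2, 49.5 and 43.5 TPM in WT. Every LPS library was again below every PBS library (-0.85 ± 0.15 in KO and -0.94 ± 0.15 in WT, adjusted p = 0.00113 and 0.000644). Atg14, which brings the PI3-kinase complex to the site of autophagosome formation, stood at 19.0, 15.3, 19.8 and 22.8 TPM in KO LPS and 21.1, 18.9, 14.9 and 17.4 TPM in WT LPS. In PBS libraries Atg14 was at 38.1, 28.7 and 33.8 TPM in KO and 36.2, 34.0 and 24.6 TPM in WT. It fell in both genotypes without overlap (-0.78 ± 0.16 in KO and -0.76 ± 0.16 in WT, adjusted p = 0.00308 and 0.00319). Its catalytic partner Pik3c3 (VPS34) had -0.58 in KO and -0.64 in WT, and the receptor Nbr1 -0.56 and -0.63. The inhibitor Rubcn and the complex subunits Atg14 and Pik3c3 were lower together.

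**Figure D4:**
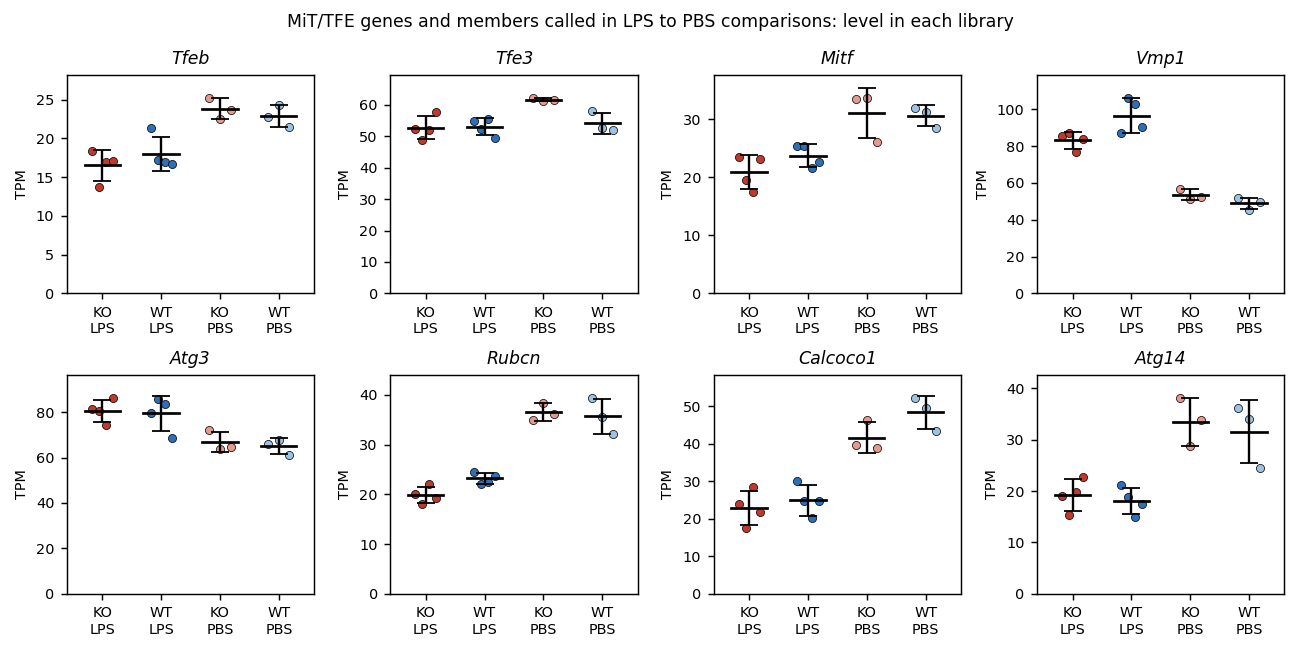
TPM (linear axis from 0) of the 3 MiT/TFE genes, Vmp1, Atg3, Rubcn, Calcoco1 and Atg14 in each library by group, KO LPS, WT LPS, KO PBS and WT PBS from left to right, with the mean and SD. Within each genotype, LPS and PBS libraries do not overlap for Vmp1, Atg3, Rubcn, Calcoco1 or Atg14.

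Of the MiT/TFE factors, Tfeb and Mitf fell in both genotypes and Tfe3 in KO on the TPM scale, and none of these calls was made after median-of-ratios scaling. Tfeb had -0.51 in KO and -0.33 in WT on TPM (adjusted p = 0.00448 and 0.0338), and was -0.25 and -0.01 after scaling (adjusted p = 0.0726 and 0.934). Mitf had -0.55 in KO and -0.36 in WT on TPM (adjusted p = 0.00388 and 0.0329), and was -0.30 and -0.03 after scaling, not called. Tfe3 fell in KO on TPM (-0.23, adjusted p = 0.0281) but was 0.04 after scaling, and in WT was -0.03 on TPM and called higher after scaling (0.30, adjusted p = 0.00631). The TPM calls of Tfeb and Mitf in WT and of Tfe3 in KO were each lost in 4 to 6 of 14 fits that left out 1 library.

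The other LPS to PBS calls followed the roles unevenly. In the ULK1 complex, Ulk2 fell in KO on both scales (-0.65 on TPM) and Atg13 in WT on both (-0.70), while Ulk1 (-0.37 in KO and -0.51 in WT) was called on TPM alone. Gabarapl1 and Gabarapl2 fell in WT on both scales, to 46.4% and 59.3% of the PBS mean (-1.11 ± 0.22 and -0.75 ± 0.08, adjusted p = 0.00182 and 3.22e-05). In KO they stood at -0.46 and -0.41 (adjusted p = 0.121 and 0.00132), the second called on TPM alone, and neither difference between genotypes passed, as given above. Without KO_LPS_3, at 96.1 TPM, Gabarapl1 was called lower in KO too (-0.64, adjusted p = 0.0257). Its WT call was kept in all 14 fits that left out 1 library. KO_LPS_3 and WT_PBS_914, the libraries with pituitary transcripts, had the highest Gabarapl1 of their groups. Map1lc3b fell in WT on TPM alone (-0.35) and was 0.02 in KO. Map1lc3a fell in WT on TPM alone (-0.40, adjusted p = 0.0466), a call kept in 4 of 14 fits that left out 1 library, and was -0.24 in KO. Gabarap and Sqstm1 were not called on TPM (0.14 and 0.03 in KO, 0.25 and -0.25 in WT), and after scaling Gabarap was called higher in both genotypes and Sqstm1 in KO.

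Vamp8 rose in WT on both scales (0.33 ± 0.09 on TPM, adjusted p = 0.0129), at 161, 185, 174 and 197 TPM in KO LPS and 188, 176, 204 and 165 TPM in WT LPS. In PBS libraries Vamp8 was at 169.7, 173 and 149 TPM in KO and 145, 155 and 138 TPM in WT. Its KO fold change was 0.13 (adjusted p = 0.301). Atg4d, another ATG4 protease, rose in KO on both scales (0.32 ± 0.10, adjusted p = 0.0289), at 13.8, 14.3, 13.8 and 13.6 TPM in KO LPS and 12.2, 12.9, 11.3 and 14.2 TPM in WT LPS. In PBS libraries Atg4d was at 11.1, 11.0 and 10.6 TPM in KO and 10.6, 9.32 and 11.3 TPM in WT. Its WT fold change was 0.26 (adjusted p = 0.0604), and its KO call was lost in 5 of 14 fits that left out 1 library, as that of Becn1 was in 4. Exons of Kri1 on the other strand, at up to 38.3 TPM, cover 19.3% of the exon length of Atg4d. Becn1 rose in KO on both scales (0.23 ± 0.08, adjusted p = 0.0325) and was 0.17 in WT on TPM (adjusted p = 0.0936). Atg4c fell in KO on both scales and Ambra1, a Beclin 1 regulator, in WT (-0.69 and -0.52 on TPM). Limma called 0 interactions among the 52 genes, as given above, so none of them is shown to respond differently in KO and WT.

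**Figure D5:**
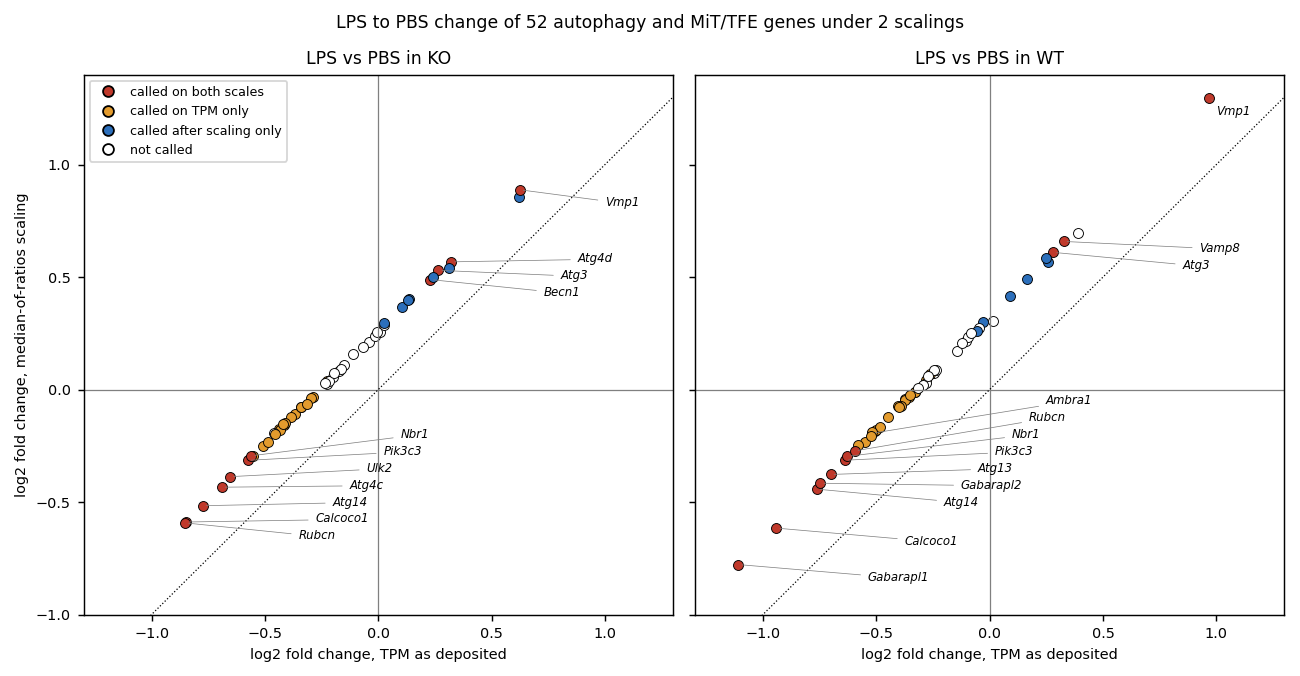
Log2 fold change of LPS over PBS for the 52 genes on the deposited TPM (x axis) and after median-of-ratios scaling (y axis), in KO (left) and WT (right), with the line of equal values dotted. All points lie above the dotted line. Named genes are called on both scales, 11 in KO and 12 in WT, a count not made over all genes. Orange points, called on TPM alone, lie between -0.30 and 0.07 after scaling.

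Of 36 further autophagy genes tested, 2 fell in KO under PBS, beside 0.224% of all genes called lower. Under PBS 6 of the 36 had an unadjusted p under 0.05, beside 15.7% of all genes. Under LPS limma called 0 of the 36, beside 0.497% of all genes, and 2 had an unadjusted p under 0.05, beside 11.7%. With median-of-ratios scaling 1 fell under PBS (Trp53inp1), beside 0.7% of all genes called in either direction, and 0 were called under LPS (0.908%). On that scale 3 fell on average (Trp53inp1, Trp53inp2 and Vps41), beside 1.56% of all genes called lower. Trp53inp1, which binds LC3 and acts in p53 responses, stood at 32.1, 31.1 and 37.6 TPM in KO PBS and 69.1, 102 and 66.5 TPM in WT PBS (-1.19 ± 0.17, adjusted p = 0.00973). Its paralog Trp53inp2 stood at 26.4, 27.5 and 23.1 TPM in KO PBS and 39.4, 39.2 and 45.3 TPM in WT PBS (-0.67 ± 0.14, adjusted p = 0.0489). Both also fell on average (-0.73 and -0.40), as 2 of the 36 beside 0.913% of all genes called lower. The PBS call of Trp53inp1 was lost without KO_PBS_911 or KO_PBS_912 and that of Trp53inp2 in 10 of 14 fits that left out 1 library. In LPS to PBS comparisons 2 of the 36 rose and 20 fell in each genotype on TPM, and 4 rose and 6 fell in KO and 4 rose and 4 fell in WT after scaling. The shares of all genes called were 34.7% in KO and 42% in WT on TPM, and 22.8% in KO and 29.3% in WT after scaling. Tfec, the remaining MiT/TFE gene, and Rab7b, a late endosome GTPase, were the 2 that rose, both on both scales. Tfec stood at 6.73, 7.09, 6.26 and 5.28 TPM in KO LPS and 7.98, 5.42, 6.87 and 4.59 TPM in WT LPS. In PBS libraries Tfec was at 2.86, 1.94 and 2.31 TPM in KO and 1.61, 2.42 and 2.24 TPM in WT. LPS and PBS libraries did not overlap (1.13 ± 0.20 in KO and 1.21 ± 0.20 in WT, adjusted p = 0.000907 and 0.000628), while Rab7b had 1.20 in KO and 0.79 in WT. Eva1a, an autophagy regulator of the endoplasmic reticulum and lysosome (-1.01 in KO and -1.23 in WT) fell on both scales in both genotypes.

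Of 17 genes of TFEB control by nutrient signalling, Rheb itself was the 1 called with genotype under PBS (-0.79 ± 0.12, adjusted p = 0.0163) and on average (-0.60), its PBS call being lost in 4 of 14 fits that left out 1 library, and 0 were called under LPS by limma (-0.42 for Rheb, adjusted p = 0.11, the 1 at an unadjusted p under 0.05). With median-of-ratios scaling Rheb was also called lower under LPS (-0.50, adjusted p = 0.0417), again as the 1 gene called in each genotype comparison. In LPS to PBS comparisons 7 fell in KO and 9 in WT on TPM, and 4 rose and 2 fell in KO and 3 rose and 1 fell in WT after scaling, beside the same shares of all genes. Rragd, a RagD GTPase known as a TFEB target, fell in WT on both scales, with 4.68 ± 1.85 TPM in WT LPS and 17.0 ± 3.97 TPM in WT PBS (-1.70 ± 0.31, adjusted p = 0.00129). Tsc22d4 (-0.71 in KO and -0.61 in WT) and Rptor, the mTORC1 subunit Raptor (-0.75 and -0.59), fell in KO on both scales and in WT on TPM alone.

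Of 34 lysosomal genes of the CLEAR network, the set known to carry the TFEB motif, 0 were called with genotype under PBS by limma (6 at an unadjusted p under 0.05, 15.7% of all genes). Under LPS 2 fell, beside 0.24% of all genes called lower. These were Ctsd (cathepsin D, -1.01 ± 0.15, adjusted p = 0.0175) and Cd63, a tetraspanin of late endosomes (-0.59 ± 0.11, adjusted p = 0.0404). An unadjusted p under 0.05 was found for 12 of the 34 under LPS, beside 11.7% of all genes. Fold changes were 4 positive and 30 negative under LPS, where 62.8% of all genes were positive. Under PBS they were 20 positive and 14 negative (49.1% of all genes positive). The call of Ctsd was lost without KO_LPS_3, and that of Cd63 in 11 of 14 fits that left out 1 library. With median-of-ratios scaling 6 fell under LPS, beside 0.908% of all genes called in either direction. On average 5 fell, beside 0.913% of all genes, Ctsd, Sgsh, Cd63, Ctsb and Lamp1, from -0.69 to -0.28. In LPS to PBS comparisons 2 rose and 13 fell in KO and 7 rose and 3 fell in WT on TPM, and 7 rose and 3 fell in KO and 20 rose and 0 fell in WT after scaling. The shares of all genes were 7.82% higher and 26.9% lower in KO and 7.95% higher and 34.1% lower in WT on TPM, and 12.6% and 10.2% in KO and 16% and 13.3% in WT after scaling. Gpnmb, a lysosomal glycoprotein of activated phagocytes, rose in both genotypes (1.15 and 1.48). It had 4.99 ± 2.28 TPM in KO LPS, 5.74 ± 3.33 TPM in WT LPS, 1.71 ± 1.31 TPM in KO PBS and 1.27 ± 0.491 TPM in WT PBS. Its LPS and PBS libraries overlapped in KO (2.17 TPM in KO_LPS_4 and 3.23 TPM in KO_PBS_915) and did not overlap in WT. Of interactions, limma called 0 of the 34, with 11 at an unadjusted p under 0.05, beside 9.51% of all genes.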

How the data were processed

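The authors deposited TPM values (reads per gene length, scaled to a total of 1000000 per library) for 14 libraries, made, per the submitters' processing notes, with STAR (version 2.7.10b) as aligner and featureCounts (version 2.0.1) for counting. Those notes name hg38, although the gene IDs are mouse. Symbols came from the reference for 41588 IDs. With GENCODE M21 exon lengths, 98.8% of genes gave whole reads in all libraries (tolerance 0.02 reads), which supplied the depth. The log2 of TPM plus 1 was fitted with limma 3.58.1 in R 4.3.3 (4 group means, all libraries, intensity trend) and adjusted by Benjamini-Hochberg, and all adjusted p-values are from it unless scaling is named. Steps were tested on simulated data. Alternatives were other pseudocounts, filters, scalings, weights, no trend, compared groups alone, a replicate block, libraries left out and limma-voom on recovered reads, which called 191 genes between KO and WT under PBS and 307 under LPS, where limma on TPM called 191 and 93.

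The members and lists were chosen with earlier results of these data known, and roles were assigned after values were seen. Values in every library are given for Tfeb, Tfe3, Mitf, Ulk1, Becn1, Sqstm1 and the LC3 and GABARAP genes, for genes called with genotype, for the 4 smallest p in each genotype comparison and for up to 6 called genes per direction with the largest LPS change. Of the lists, up to 3 called genes per direction were eligible for naming. Other genes, such as Ctsb, Lamp1, Vps41 and members described by role, were named after their values were seen. Protein sequences were not used here.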

Additional observations from a re-analysis of the deposited data

Results flagged for a closer look

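Among 104 groups of 4 libraries (52 genes in KO LPS and in WT LPS), 5 had 1 library farther from the others than the 95% critical value of Dixon's test allows, where chance flags about 1 in 20 groups. Tfeb in WT LPS was highest in WT_LPS_1, at 21.3 TPM against 16.7 to 17.2 TPM in the others. Ulk2 in KO LPS was highest in KO_LPS_4, at 102 TPM against 81.5 to 84.7 TPM. Becn1 and Atg9a in KO LPS were highest in KO_LPS_1, at 39.9 TPM against 36.4 to 36.9 TPM and at 19.5 TPM against 14.6 to 14.7 TPM. Atg4c in WT LPS was lowest in WT_LPS_4, at 14.3 TPM against 21.3 to 21.9 TPM. For Ulk2, the library that stood apart lay nearer to WT, and all 4 KO LPS libraries were still below all WT LPS libraries. These are values of single libraries, and their cause was not tested.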

How the results depend on the processing

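Counts of called genes among the 52 moved with the settings as follows. Under PBS the genotype count of 1 was 0 with no filter, with no intensity trend, with the compared groups alone and without both WT_PBS_914 and KO_LPS_3, 2 with quantile normalisation, 3 with library weights, and 0 to 2 with single libraries left out. Of all genes, 191 were called as reported, 79 with no filter (of 29186), 65 with no trend and 109 with the compared groups alone. This all-gene count was 19 without both libraries, 387 with quantile normalisation, 999 with library weights and 8 to 286 without single libraries. Under LPS the count of 0 was 1 (Ulk2 each time) with median-of-ratios scaling, library weights and voom, and 0 with each library left out. For all genes it was 93 as reported, 170 with scaling, 168 with weights, 307 with voom and 18 to 99 without single libraries. The average count of 4 was 2 with no intensity trend, 7 with library weights and 0 to 4 with single libraries left out, the 0 being without WT_PBS_904 or WT_PBS_913. For all genes it was 738 as reported, 527 with no trend, 1267 with weights and 371 to 827 without single libraries. The interaction count was 0 under all settings run, and 0 to 3 for all genes. For LPS against PBS in KO, 27 became 18 to 29 with single libraries left out (18 without KO_PBS_912), and in WT 31 became 18 with median-of-ratios scaling, 20 with quantile normalisation and 20 to 32 with single libraries left out (20 without WT_PBS_913). For all genes, 6494 became 4613 to 6636 in KO. In WT 7866 became 5495 with that scaling, 5796 with quantile normalisation and 5803 to 8077 without single libraries. Among the members whose values are given in every library and the list genes called with genotype, the 1 value that reversed was Tfe3 in KO LPS against KO PBS (-0.23 on TPM, 0.0389 with median-of-ratios scaling, not called). Atg4b and Atg5, which fell in WT LPS against WT PBS on TPM (-0.28 and -0.26), were also positive and not called with that scaling (0.04 and 0.07). The causes were not tested, and the left-out fits also hold fewer libraries. Over the same members and list genes, 4556 values with a call or without one stayed as they were, 82 gained a call and 290 lost one. The unchanged values include those without a call, so these counts do not give the share of calls kept.

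LPS libraries share numbers 1 to 4 between genotypes, and same-numbered libraries did not vary together (correlations of their deviations -0.0862 to 0.0608, 1 of 4 KO libraries matching its own number best). A replicate block by those numbers left 1 called gene on average (Bnip3), 0 under LPS, 0 interactions, 22 in LPS to PBS in KO and 30 in WT. Of all genes it called 495, 23, 0, 6146 and 7491 in the same order. Depth limits genes such as Atg10, with 50 reads in KO_LPS_4, where counting error is largest.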
